A study of Mus musculus with 4 samples.

Results

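Expression of 10 genes of the acute phase response was described in mouse lung. They were taken from the files by their symbols. Of the 10 listed symbols, 9 were found in the files as written, namely Orm1, Orm2, Saa1, Saa2, Saa3, Hp, Lcn2, Lrg1 and Ptx3. The remaining symbol, Chi3l1, was found under Chil1, which RefSeq gives as the same gene. These 10 rows belonged to 23282 rows in each file.

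The study set exercise against tumor growth and profiled several organs, of which only lung is described here. Lungs of CDF1 mice, males per the study's methods, were sequenced in 4 libraries, 1 for each group of 10 mice. The normal control E(-)T(-) had neither running nor tumor cells, the normal exercise group E(+)T(-) ran on a treadmill, the cancer control E(-)T(+) received CT26 cells, and the cancer exercise group E(+)T(+) received CT26 cells and ran. CT26 is a mouse colorectal carcinoma line, and it was given through the tail vein, a route that seeds the lung directly and bypasses the primary tumor. The labels give an age of postnatal day 28 for all 4 groups, which was also the age at which the mice were bought. Per the study's methods the mice were killed once the experiments had ended, so the lungs were taken after that age. The study names a representative mouse of each group for muscle and a similar analysis for lung, which leaves unsaid whether a lung library held 1 mouse or several, and with 1 library per group no difference below has a replicate check.

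Acute phase proteins are secreted in large amounts when inflammatory cytokines, above all IL-6 and IL-1, reach the cells that make them. The liver is the main source in the body. IL-6 acts through the transcription factor STAT3, and IL-1 acts through NF-kB, while C/EBP factors bind the promoters of many of these genes. Several of the proteins are also made outside the liver, for example SAA3 and lipocalin-2 in epithelium and macrophages, haptoglobin in lung and fat, and lipocalin-2 and LRG1 in neutrophil granules. In a sample of whole lung, fewer cells of a type and less RNA per cell cannot be told apart.

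The libraries held between 9354549 reads (cancer control) and 13368133 reads (cancer exercise), summed over genes from the reads recovered from the deposited values and so not exact. Levels are given as normalized counts, that is, reads brought by the authors to a common library size, with the whole reads behind them. Where 4 values follow each other without a group name, they run from normal control through normal exercise and cancer control to cancer exercise. Levels were not compared between genes. Differences are on the scale of log2(normalized count + 1), and a difference counted as past the limit when it reached 2-fold in a row with a mean normalized count of at least 4, which 15164 rows and all 10 genes had. Saa1 and Saa2 had that mean only through the libraries with tumor, since their mean without tumor was 2.6 and 0.43. Intervals in brackets are exact 95% intervals for the log2 ratio of reads, which cover counting error only and carry no pseudocount, so at low counts the difference lies toward 0 within them. Hemoglobin genes took 14.3% of reads in the normal control, 14.2% in normal exercise, 1.43% in the cancer control and 31.4% in cancer exercise.

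The 3 serum amyloid A genes were each more than 2-fold higher with tumor, in sedentary mice and in runners. Saa1 and Saa2 encode the acute phase apolipoproteins of high density lipoprotein, and Saa3 encodes the form made by macrophages and epithelium. The 3 genes lie on chromosome 7 in GRCm38, Saa3 at chr7:46711998-46715700 on the minus strand, Saa1 at chr7:46740497-46742980 on the minus strand and Saa2 at chr7:46751790-46754313 on the plus strand. Their promoters are shown here because each holds the C/EBP letters, and Saa1 and Saa2 those of NF-kB too. The sequences are from RefSeq (GRCm38.p6), run 5' to 3' along the gene's strand and end before the first annotated exon. They cover chr7:46742981-46743230 for Saa1, chr7:46751583-46751789 for Saa2 and chr7:46715701-46715926 for Saa3, and capitals mark a match to the C/EBP letters TTGCNNAA or the NF-kB letters GGGANNNTC on either strand.
Saa1: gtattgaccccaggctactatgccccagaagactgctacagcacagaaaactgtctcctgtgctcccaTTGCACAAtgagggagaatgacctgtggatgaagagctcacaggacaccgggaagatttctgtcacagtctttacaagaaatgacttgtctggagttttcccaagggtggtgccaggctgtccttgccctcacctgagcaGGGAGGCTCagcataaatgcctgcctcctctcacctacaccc
Saa2: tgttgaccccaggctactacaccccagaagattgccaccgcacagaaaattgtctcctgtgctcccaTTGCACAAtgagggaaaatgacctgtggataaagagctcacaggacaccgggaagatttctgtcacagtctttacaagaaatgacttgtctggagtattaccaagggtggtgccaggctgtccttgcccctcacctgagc
Saa3: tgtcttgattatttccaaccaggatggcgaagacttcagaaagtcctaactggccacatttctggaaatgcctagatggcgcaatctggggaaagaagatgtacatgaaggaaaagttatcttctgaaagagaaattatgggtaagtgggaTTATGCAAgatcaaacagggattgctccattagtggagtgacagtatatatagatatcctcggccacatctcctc

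The C/EBP match stands 182 bases before the start in Saa1, 183 in Saa2 and 99 in Saa3. The NF-kB match of Saa1 stands 42 bases before the start, and Saa2 has the same letters 42 bases before its RefSeq start, just past the stretch shown. The 250 bases before the starts of Saa1 and Saa2 were 94.8% identical, so their matches are not separate observations, while those of Saa1 and Saa3 were 52.2% identical.

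Saa1 had a normalized count of 1.59 in the normal control, 3.61 in normal exercise, 29.6 in the cancer control and 95.4 in cancer exercise, from 2, 4, 27 and 82 reads. Saa2 had 0, 0.861, 18.7 and 111 in the same order, from 0, 1, 17 and 95 reads. Both genes were close to or at 0 without tumor, and both were highest in the tumor-bearing mice that ran. With tumor, exercise went with a Saa1 level higher by 1.66 (1.05 to 2.38) and a Saa2 level higher by 2.5 (1.82 to 3.41). In sedentary mice the tumor difference of Saa1 was 3.56 (2.13 to 7.24). Saa2 had no read in E(-)T(-), and against the 3 reads that a count of 0 allows per library it was 7.31-fold higher in E(-)T(+). The exact interval of its log2 ratio began at 2.41. In runners the tumor difference was 4.39 (3.29 to 6.62) for Saa1 and 5.9 (4.4 to 12.24) for Saa2, the latter against 1 read. Without tumor, neither gene had enough reads to show a difference with exercise.

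Saa3 had a normalized count of 73.0 in the normal control, 183 in normal exercise, 8877 in the cancer control and 5598 in cancer exercise. It was the one gene of the 10 that was highest in the sedentary mice with tumor. The sedentary tumor difference was 6.91 (6.62 to 7.25), a 120-fold ratio. In runners it was 4.93 (4.73 to 5.15). Exercise went with a higher Saa3 level without tumor, by 1.31 (0.95 to 1.7). With tumor it went with a lower one, by -0.66 (-0.72 to -0.61), which is inside the 2-fold limit. With library totals alone this value was -1.27, past the limit.

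The low Saa3 level of E(+)T(-) has a measured limit. Of all rows, 9 had no read in E(-)T(-) and a normalized count of at least 500 in E(-)T(+), and all 9 had reads in E(+)T(-), where they reached 0.642% to 2.18% of the cancer control level, with a median of 1.47%. With this median share of the E(-)T(+) level taken off E(+)T(-), the exercise difference of Saa3 without tumor was -0.47, and its tumor difference in runners was 6.71. Whether material of one library was present in the other was not tested.

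Saa4, the constitutive member of the family, had 13 reads in E(+)T(+) and 0 in each of the other 3 libraries. No stretch of 75 bases in the last 400 bases of the Saa1, Saa2, Saa3 or Saa4 transcript was found in another of the 4, so the reads of these genes could be told apart at that length.

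**Figure D1:**
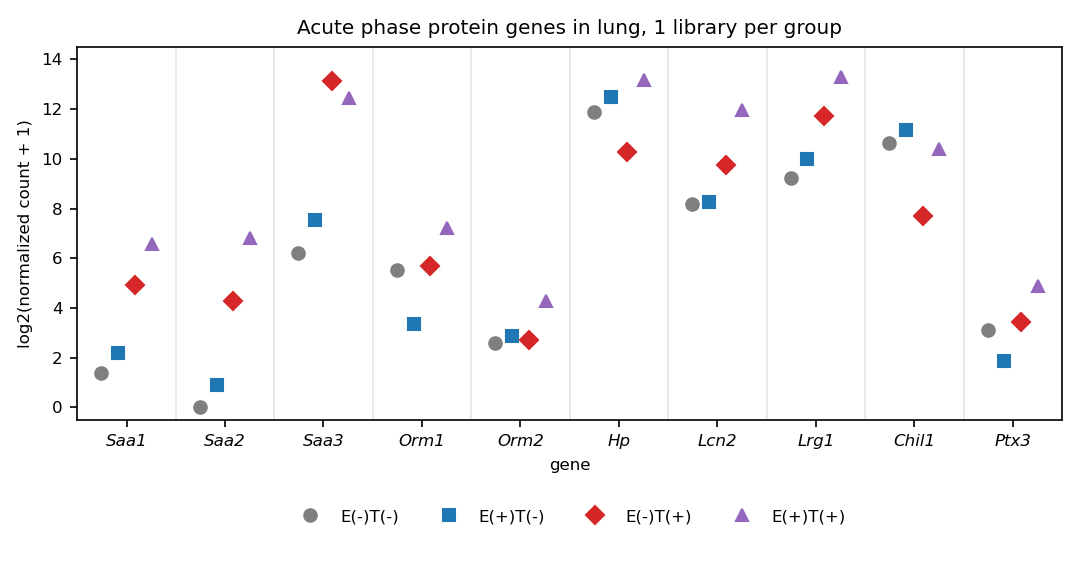
Level of each gene in each lung library, as log2(normalized count + 1) on the vertical axis, with 1 symbol per group and 1 library per group. The E(+)T(+) triangle is the highest in 8 of the 10 genes, the exceptions being Saa3 and Chil1.

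Orm1 and Orm2 encode alpha-1-acid glycoprotein, a plasma carrier of drugs and lipids. They stand side by side on chromosome 4, Orm1 at chr4:63344560-63348163 and Orm2 at chr4:63362449-63365878, both on the plus strand. The Orm2 promoter is shown because its C/EBP match, in capitals 120 bases before the start, reads the same on both strands. It covers chr4:63362199-63362448, from the same RefSeq build.
Orm2: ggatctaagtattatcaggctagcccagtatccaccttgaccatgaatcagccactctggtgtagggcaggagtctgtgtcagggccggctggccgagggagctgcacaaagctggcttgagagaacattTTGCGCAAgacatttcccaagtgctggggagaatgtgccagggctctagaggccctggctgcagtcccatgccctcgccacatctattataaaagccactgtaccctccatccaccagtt

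Orm1 had a normalized count of 45.8 in the normal control, 9.12 in normal exercise, 50.4 in the cancer control and 148 in cancer exercise, from 54, 10, 46 and 127 reads. The lowest level belonged to the runners without tumor and the highest to the runners with tumor, while the sedentary libraries did not differ beyond counting error. Exercise therefore went with opposite differences, -2.21 (-3.46 to -1.33) without tumor and 1.54 (1.06 to 2.08) with tumor, the latter 0.94 with library totals alone. The tumor difference was 0.14 (-0.46 to 0.73) in sedentary mice and 3.88 (3.09 to 5.11) in runners.

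Orm2 had 5.03, 6.40, 5.52 and 18.5, from 6, 7, 5 and 16 reads. The first 3 libraries lay within counting error of each other and E(+)T(+) stood above them. With tumor, exercise went with a level higher by 1.58 (0.26 to 3.57). The tumor difference in runners was 1.4 (0.18 to 3.06), and the other comparisons of Orm2 were not resolved at this depth. Of 326 stretches of 75 bases at the end of the Orm1 transcript, 97 (29.8%) also occur in Orm2, so reads of these neighbours may have been split between them. The third gene of the cluster, Orm3, had 178, 240, 24 and 97 reads. It was lower with tumor in sedentary mice by -2.48 (-3.2 to -1.9) and, like Orm1 and Orm2, higher with exercise among tumor-bearing mice, by 2.06 (1.45 to 2.82).

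Hp encodes haptoglobin, which binds free hemoglobin so that CD163 on macrophages can take it up (chr8:109575128-109579172, minus strand). Its normalized count was 3784 in the normal control, 5676 in normal exercise, 1253 in the cancer control and 9325 in cancer exercise. The sedentary mice with tumor had the lowest level and the runners with tumor the highest. Tumor thus went with opposite differences, -1.59 (-1.69 to -1.5) in sedentary mice and 0.72 (0.67 to 0.76) in runners, the latter 0.3 with library totals alone. Exercise went with a higher level both without tumor, by 0.59 (0.53 to 0.64), and with tumor, by 2.89 (2.81 to 2.99). Erythroid markers, mostly hemoglobin genes, summed to a normalized count of 1589519, 1667911, 146925 and 4931081, which is the order of the 4 Hp levels. The sums of E(-)T(-) and E(+)T(-) were close together. Both Hp and the erythroid sum were lowest in E(-)T(+) and highest in E(+)T(+).

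Lcn2 encodes lipocalin-2, which binds bacterial siderophores and so withholds iron from microbes (chr2:32384633-32388252, minus strand). Its normalized count was 293 in the normal control, 308 in normal exercise, 873 in the cancer control and 4044 in cancer exercise. The libraries without tumor were close together, and those with tumor stood above them, the runners highest. The tumor difference was 1.57 (1.39 to 1.76) in sedentary mice and 3.71 (3.55 to 3.88) in runners. Exercise went with a difference of 2.21 (2.1 to 2.32) with tumor. Without tumor it was 0.07 (-0.15 to 0.29), and -0.02 when reads were scaled by library totals alone.

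Lrg1 encodes leucine-rich alpha-2-glycoprotein, a secreted protein that modifies TGF-beta signalling in endothelium through endoglin (chr17:56119678-56122001, minus strand). Its normalized count was 595 in the normal control, 1009 in normal exercise, 3408 in the cancer control and 9911 in cancer exercise. All 4 libraries were apart beyond counting error. Their order was that of Saa1, Saa2 and Lcn2, in which the libraries without tumor were within counting error of each other. The tumor difference was 2.52 (2.4 to 2.64) in sedentary mice and 3.3 (3.21 to 3.39) in runners. The exercise difference was 0.76 (0.62 to 0.9) without tumor and 1.54 (1.48 to 1.6) with tumor, the latter 0.93 with library totals alone.

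Chil1 encodes the chitinase-like protein that binds chitin but does not cut it, known as YKL-40 in humans (chr1:134182176-134190181, plus strand). Its normalized count was 1573 in the normal control, 2271 in normal exercise, 205 in the cancer control and 1362 in cancer exercise. It was the one gene of the 10 that was lower with tumor in runners as well as in sedentary mice. The tumor difference was -2.93 (-3.17 to -2.72) in sedentary mice and -0.74 (-0.84 to -0.64) in runners, the latter inside the 2-fold limit. With library totals alone the value in runners was -1.15, past the limit. Exercise went with a higher level, by 0.53 (0.44 to 0.62) without tumor and by 2.73 (2.51 to 2.96) with tumor.

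Ptx3 encodes the long pentraxin, a soluble pattern recognition protein made locally by macrophages, fibroblasts and endothelium (chr3:66219910-66225805, plus strand). Its normalized count was 7.58 in the normal control, 2.70 in normal exercise, 9.89 in the cancer control and 29.0 in cancer exercise, from 9, 3, 9 and 25 reads. The order of the libraries was that of Orm1, but for Ptx3 only the last step up to E(+)T(+) was beyond counting error. With tumor, exercise went with a level higher by 1.46 (0.42 to 2.85), or 0.9 with library totals alone. In runners the tumor difference was 3.02 (1.69 to 5.78). The exercise difference without tumor was -1.21 (-3.99 to 0.53), past the limit but not beyond counting error.

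**Figure D2:**
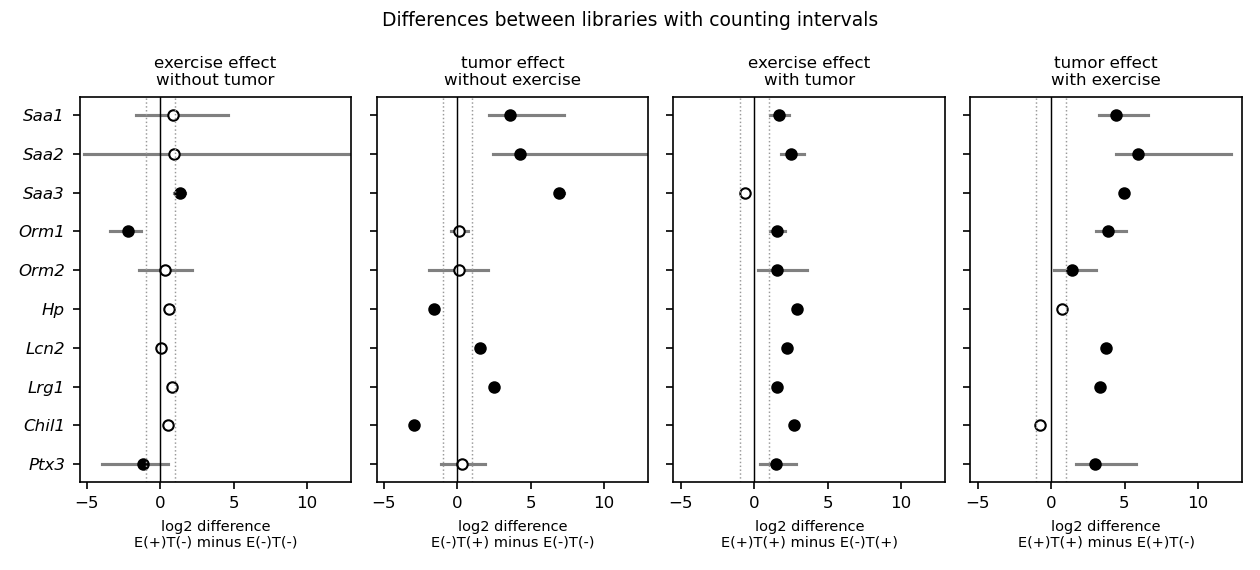
Differences of log2(normalized count + 1) for the 10 genes in the 4 comparisons, with exact 95% counting intervals as horizontal lines, cut where they leave the axis, and dotted lines at 2-fold. Filled circles are past the limit and open circles are not. In the exercise comparison with tumor, 9 of 10 circles are filled and lie to the right of 0, and Saa3 lies to the left.

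Exercise in tumor-bearing mice went with higher levels of all of the 10 genes except Saa3, which was lower by -0.66 (-0.72 to -0.61). In that comparison 9 genes were at least 2-fold higher in E(+)T(+), beside 24.3% of all rows tested, and 0 were at least 2-fold lower, beside 17.7%. Their median difference was 1.62 against 0.01 over all rows. In mice without tumor the same exercise contrast gave 1 higher gene, Saa3, beside 5.28% of all rows, and 2 lower genes, Orm1 and Ptx3, beside 4.7%. The median was then 0.56, or 0.42 with Saa2 set to its bound, against 0.0 over all rows.

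The tumor comparison in sedentary mice gave 5 higher genes, Saa1, Saa2, Saa3, Lcn2 and Lrg1, beside 20.6% of all rows, and 2 lower genes, Hp and Chil1, beside 25.7%. The median was 0.96 against -0.03 over all rows. In runners 8 genes were higher with tumor, beside 14.9% of all rows, and 0 were lower, beside 13%. The median was 3.5. Saa1 and Saa2, higher with tumor in both comparisons, passed the filter on low counts only through the libraries with tumor. The exercise comparison with tumor and the sedentary tumor comparison share the E(-)T(+) library, and each other neighbouring pair of comparisons shares a library in the same way.

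These counts rest on the authors' scaling, which sets E(+)T(+) higher than its library total would. With library totals alone, the median of all rows was -0.6 in the exercise comparison with tumor and -0.41 in the tumor comparison in runners. The share of higher rows among all rows past the limit was then 31.2% and not 57.8% in the first comparison, and 27.8% and not 53.5% in the second. Of the 10 genes, 6 stayed at least 2-fold higher with exercise among tumor-bearing mice, beside 16.2% of all rows at that setting. With tumor among runners 8 stayed so, beside 9.35%. Orm1 (0.94), Lrg1 (0.93) and Ptx3 (0.9) fell inside the limit in the first comparison. Saa3 (-1.27) and Chil1 (-1.15) passed the limit downward in the first and the second comparison, beside 35.7% and 24.3% of all rows.

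In 7 of the 10 genes both libraries with tumor were above both libraries without tumor, beside 26.7% of all rows. These were the 3 Saa genes, Orm1, Lcn2, Lrg1 and Ptx3. For Orm1 and Ptx3 the sedentary libraries with and without tumor did not differ beyond counting error. A limma fit had additive terms for tumor and exercise over the 4 libraries, with 1 residual degree of freedom. The fit took its spread from the interaction, drawn toward a trend of the variance shared by all rows, and not from a spread between animals. It called 4 of the 10 genes for tumor, beside 3.26% of all rows. Saa1 and Saa2 had passed the filter on low counts only through the libraries with tumor, and Saa2 is among these 4. The tumor term was 5.92 ± 0.5 (SE) for Saa3 with an adjusted p of 8.02e-05, 2.91 ± 0.47 for Lrg1 with 0.00604, 2.64 ± 0.51 for Lcn2 with 0.0143 and 5.1 ± 1.23 for Saa2 with 0.0356. Saa1 at 3.98 ± 1.08 and Chil1 at -1.84 ± 0.52 missed the threshold in limma, with adjusted p of 0.0572 and 0.066. For Orm1 the adjusted p was 0.281, and for Ptx3, Hp and Orm2 it was 0.516, 0.757 and 0.799.

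The exercise term of the same limma fit called 0 of the 10 genes and 0% of all rows, with adjusted p of 0.998 to 0.999 for the 10 genes. At an unadjusted p under 0.05 it held 753 rows (4.97%), among them Hp at 1.74 ± 0.59, Chil1 at 1.63 ± 0.52, Lrg1 at 1.15 ± 0.47 and Lcn2 at 1.14 ± 0.51. These 4 of the 10 genes became 1 with library totals alone (4.17% of rows) and 1 with no variance trend (3.13%). A model of this form averages the exercise difference over mice with and without tumor, and for Orm1, Saa3 and Ptx3 these had opposite signs. For Ptx3 this was not beyond counting error, and for Saa3 it did not hold once the median share of E(-)T(+) was taken off. With the variance not tied to the mean level, limma called 0 of the 10 genes and 0 of all 15164 rows for tumor, with 5 of the 10 genes and 2172 rows at an unadjusted p under 0.05.

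The cytokines that induce acute phase genes were mostly few in reads. Il6 had 0, 2, 4 and 21 reads, and the exercise difference with tumor was 2.21 (0.92 to 4.49). Il1b had 336, 787, 139 and 1657 reads, with an exercise difference of 1.34 (1.15 to 1.53) without tumor and 3.66 (3.42 to 3.93) with tumor. Both were highest in E(+)T(+), as were 8 of the 10 acute phase genes. In normalized count Tnf and Il11 were highest there too, on few reads. Tnf had 23, 9, 2 and 20 reads, a normalized count of 19.6 in E(-)T(-) and 23.3 in E(+)T(+). Il11 had 11, 8, 18 and 27 reads, and its exercise difference with tumor was within counting error, at 0.65 (-0.24 to 1.63). Il1a, with 36, 25, 6 and 9 reads, was highest in the normal control, and Osm, with 18, 13, 38 and 26, in the cancer control. Lif, a relative of IL-6, was highest in the sedentary mice with tumor, with 29 reads there and 1 to 5 reads elsewhere. Il17a and Il22 had no read in any library. Of 7 cytokines past the filter on low counts, which Il6 passed only through E(+)T(+) and Lif only through E(-)T(+), 3 were at least 2-fold higher with exercise among tumor-bearing mice and 1 was lower, beside 24.3% and 17.7% of all rows.

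Among 9 cytokine receptors, 0 passed the limit with exercise in mice without tumor, beside 5.28% higher and 4.7% lower rows. With exercise in mice with tumor 6 were higher and 1 lower, beside 24.3% and 17.7%. Il6ra, the IL-6 receptor, was higher by 1.06 (0.8 to 1.33) and Il6st, its signalling chain gp130, by 1.16 (0.98 to 1.34) in the mice with tumor. Lifr, the LIF receptor chain, had 1400, 836, 147 and 375 reads, with a tumor difference of -2.88 in sedentary mice. Il1r1, the IL-1 receptor, was the one that was lower with exercise among tumor-bearing mice, by -1.21. Il17ra, the IL-17 receptor, was higher by 1.46 in that comparison.

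Transcription factors and their feedback genes had a median exercise difference of 0.97 in mice with tumor, beside the 1.62 of the acute phase genes. Stat3 differed by 0.69 (0.63 to 0.74) with exercise among mice with tumor, inside the 2-fold limit. Socs3, the feedback inhibitor that STAT3 induces, had a log2 level of 8.10, 9.11, 10.56 and 11.81. This is the order of Saa1, Saa2, Lcn2 and Lrg1, though for Saa1, Saa2 and Lcn2 the libraries without tumor were within counting error of each other. Cebpb was higher by 1.26 (1.11 to 1.4) and Nfkbia, the NF-kB inhibitor that NF-kB induces, by 1.58 (1.54 to 1.62) with exercise in mice with tumor. Cebpd was higher by 0.94 (0.85 to 1.04) with exercise without tumor and by 1.61 (1.52 to 1.7) with tumor in sedentary mice, and by 0.25 (0.18 to 0.31) and 0.91 (0.84 to 0.99) in the comparisons with the cancer exercise library. Bcl3 and Nfkbiz, nuclear partners of NF-kB, were higher by 1.98 and 1.49 with exercise among mice with tumor. Of the 10 genes in this list 5 were higher and 0 lower in that comparison, beside 24.3% and 17.7% of all rows.

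Promoter windows of 250 bases were at hand for 8 of the 10 genes, namely Orm2, Saa1, Saa2, Saa3, Lcn2, Lrg1, Chil1 and Ptx3. The C/EBP letters TTGCNNAA occurred in 6 of them, the exceptions being Lrg1 and Chil1, and in 9.56% of all 32851 promoters in the table. The Lcn2 match stands 216 bases before the RefSeq start. It lies outside the longest stretch free of annotated Lcn2 exons, which runs from 111 to 59 bases before that start. The NF-kB letters GGGANNNTC occurred in 2, Saa1 and Saa2, and in 12.2% of all, the Saa2 match lying past the GENCODE start of the gene. The STAT letters TTCNNNGAA occurred in 0, and in 7.02% of all. Both strands were searched, none of the 3 motifs overlaps another in these windows, and a match of letters is not evidence of binding.

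Other acute phase and plasma protein genes were read from a list of 20, of which 17 passed the filter on low counts. Apcs and Fgg passed it only through the libraries with tumor. With exercise among tumor-bearing mice 9 were at least 2-fold higher and 2 lower, beside 24.3% and 17.7% of all rows. In runners 14 were higher with tumor and 0 lower, beside 14.9% and 13%. Serpina3n, a serine protease inhibitor, had 204, 216, 1803 and 4274 reads. The complement genes C3 and Cfb were lower with tumor in sedentary mice, by -0.87 (-0.97 to -0.78) and -0.76 (-0.99 to -0.54), and higher with exercise among tumor-bearing mice, by 2.14 (2.06 to 2.23) and 1.75 (1.55 to 1.98). Their signs in these comparisons are those of Hp. Mt1, Mt2 and Timp1, 2 metallothioneins and a metalloproteinase inhibitor, shared the Saa3 pattern of a peak in E(-)T(+). Mt2 had 678, 2588, 111608 and 20179 reads, a tumor difference of 7.73 in sedentary mice and an exercise difference of -2.37 with tumor. The share of the E(-)T(+) level, taken off E(+)T(-) for Saa3 above, was not taken off for Mt1, Mt2 or Timp1. Hpx, the heme binding protein hemopexin, had 7, 7, 26 and 52 reads. Crp, which is not a strong acute phase gene in mice, had no read in any library.

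Receptors and partners of these proteins differed among themselves. Fpr2, a receptor of serum amyloid A on neutrophils and macrophages, was lower with tumor in sedentary mice by -1.67 and higher with exercise in mice with tumor by 3.7. Cd36, a scavenger receptor, had the same signs at -3.65 and 2.86. Cd163, the receptor of the haptoglobin and hemoglobin complex, had 62, 45, 469 and 137 reads. It was highest in the library where Hp was lowest. Eng, the endoglin through which LRG1 acts, was lower with tumor in sedentary mice by -2.31 (-2.54 to -2.09) and higher with exercise in mice with tumor by 3.13 (2.92 to 3.36). The lipocalin-2 receptors Slc22a17 and Lrp2 were lower with tumor in sedentary mice, by -2.73 (-3.73 to -2.02) and -2.95 (-3.55 to -2.47). Tnfaip6, whose protein binds PTX3 in extracellular matrix, had 7, 5, 5 and 35 reads. C1qa, a complement partner of PTX3, was higher with tumor in sedentary mice by 3.49. Il13ra2, a receptor of the Chil1 protein, had no read in any library.

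Relatives of Chil1 and Ptx3 did not share 1 pattern. Chia1, the acidic chitinase, went as Chil1 did, by -2.23 with tumor in sedentary mice and 2.45 with exercise in mice with tumor. Chil3, a chitinase-like gene of macrophages and neutrophils, differed by 0.05 and 2.88 in these comparisons, and Chid1, a chitinase domain gene, by 0.86 and -0.54. Nptx1, a neuronal pentraxin, had 16, 11, 103 and 2 reads. Among 7 genes of iron and heme handling, Hmox1, the heme oxygenase, had 28, 79, 190 and 187 reads, a tumor difference of 3.08 (2.55 to 3.76) in sedentary mice. Slc40a1, the iron exporter ferroportin, was higher by 1.76 with exercise among tumor-bearing mice, and Ltf, the iron binding protein lactoferrin, was lower by -1.4. The ferritin chain Fth1 had a log2 level between 14.30 and 14.97 in all 4 libraries.

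**Figure D3:**
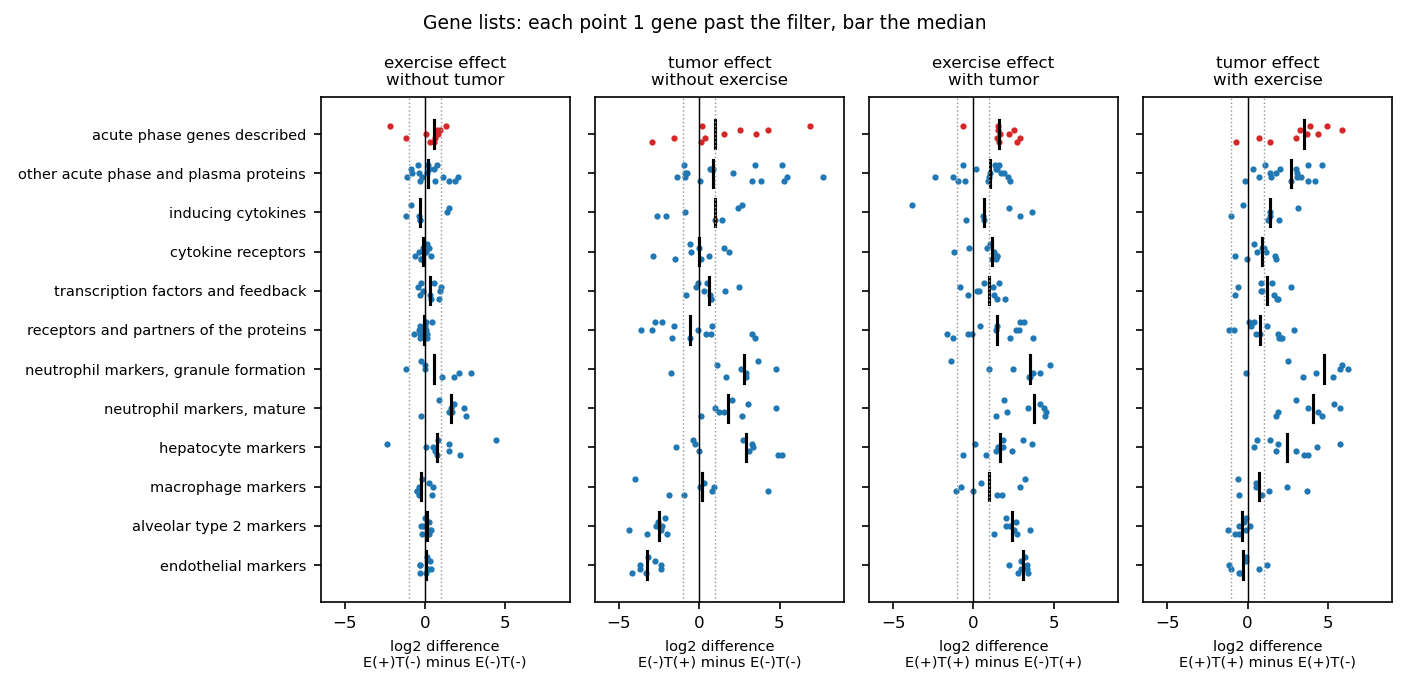
Difference of log2(normalized count + 1) for each gene past the filter on low counts (points) and the median of each list (bars), in the 4 comparisons, with dotted lines at 2-fold. The median of the acute phase genes is 1.62 for exercise with tumor. There all 8 alveolar type 2 and all 8 endothelial markers are also past the limit upward, beside 24.3% of all rows.

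Markers of cell types that make these proteins differed between the libraries too. Mature neutrophil markers, of which 8 of 9 had a row, summed to a normalized count of 3948 in the normal control, 12239 in normal exercise, 10479 in the cancer control and 210321 in cancer exercise. All 8 were at least 2-fold higher with exercise among tumor-bearing mice and with tumor among runners, beside 24.3% and 14.9% of all rows. None was at 0 reads in any library. S100a8, a calprotectin subunit, had 1608, 4679, 3567 and 77270 reads. Most of each sum came from S100a8, at 1366, 4299, 3909 and 90334, and S100a9, at 2155, 6561, 4184 and 88598. With exercise among tumor-bearing mice Il1r2, a decoy receptor of IL-1, was higher by 3.4, the collagenase Mmp8 by 4.18 and Retnlg by 4.48. Markers of granule formation, the stage at which Lcn2 is made in neutrophils, summed to 185, 362, 2032 and 5005 over 8 genes, of which Elane and Ctsg were at 0 reads in both libraries without tumor. Ltf alone gave 133, 113, 1709 and 648 of these sums, so the high sum of the cancer control is mostly Ltf, which was lower with exercise among tumor-bearing mice by -1.4, while the granule genes Prtn3 and Ngp were higher by 2.44 and 4.18. Their part in the Lcn2 and Lrg1 differences was not tested. Without tumor the neutrophil sum was higher in runners, where the exercise difference was 0.07 for Lcn2 and 0.76 for Lrg1.

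Hepatocyte markers summed to 441, 521, 615 and 1408 over 12 genes, most of it from Serpina1b in the first libraries. Alb, which defines the list, had 10, 27, 72 and 178 reads, and 3, 3, 1 and 0 of the 12 were at 0 reads. Of 10 hepatocyte markers past the filter, 6 were at least 2-fold higher and 1 lower with tumor in sedentary mice, 7 higher and 0 lower with exercise among tumor-bearing mice, and 8 higher and 0 lower with tumor in runners. The shares of all rows were 20.6% and 25.7%, 24.3% and 17.7%, and 14.9% and 13% in these comparisons. Apoa1, Apoa2 and Tat passed the filter only through the libraries with tumor. The order of libraries varied among the markers, with Fgb highest in the cancer control (6, 10, 196 and 118 reads) and Ahsg in cancer exercise (3, 16, 95 and 154 reads). The part of liver RNA in their levels was not tested.

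Macrophage markers summed to 6984, 7788, 6152 and 16404, of which Chil3, also a gene of neutrophils, gave 1296, 1796, 1339 and 9856, and no marker was at 0 reads. Marco, a scavenger receptor of macrophages, was higher with tumor in sedentary mice by 4.27 and lower with exercise among tumor-bearing mice by -1.08, the signs of Saa3, while Ear2, a marker of alveolar macrophages, went by -4.02 and 3.24. Fibroblast markers summed to between 35406 and 42804. With tumor in sedentary mice, though, 4 of 8 were at least 2-fold higher and 2 were lower, beside 20.6% and 25.7% of all rows. Col1a2 was higher by 2.78, and Mfap4 was lower by -4.62 and Inmt by -4.57. Adipocyte markers summed to 4487, 2647, 7145 and 1727, and Fabp4 alone gave 6255 of the 7145. With tumor in sedentary mice 1 of 7 adipocyte markers was higher and 4 were lower, beside 20.6% and 25.7% of all rows. Cidec was lower by -3.84 and Lipe by -2.21, the median was -1.71, and Hp, which fat also makes, was lower too. In the other 3 comparisons the adipocyte median was -0.82, -0.15 and -0.66, where Hp differed by 0.59, 2.89 and 0.72. The part of fat in the Hp level was not tested.

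Alveolar type 2 markers, all with reads in every library, summed to 200191, 233298, 27887 and 161934. All 8 were at least 2-fold lower with tumor in sedentary mice, beside 25.7% of all rows, with a median of -2.49. Lamp3 differed by -4.38, Sftpc by -3.24 and Slc34a2 by -2.7. With exercise among tumor-bearing mice all 8 were higher, beside 24.3%, with a median of 2.4. Endothelial markers had medians of -3.24 and 3.08, and the receptors Tek, Kdr and Tie1 were lower in the first comparison by -4.18, -3.71 and -3.67. Hp and Chil1 had the same signs, at -1.59 and -2.93 in the first comparison and 2.89 and 2.73 in the second. In the tumor comparison of runners the alveolar type 2 and endothelial medians were -0.36 and -0.28, where Hp differed by 0.72 and Chil1 by -0.74. The part of lung epithelium and endothelium in these differences was not tested. Saa1, Saa2, Saa3, Lcn2 and Lrg1 were higher with tumor in the same sedentary library in which the alveolar type 2 and endothelial markers were lower. Airway secretory markers summed to 477774, 576145, 166895 and 563472, mostly Scgb1a1. With tumor in sedentary mice 4 of 8 were at least 2-fold higher and 3 were lower, beside 20.6% and 25.7% of all rows. The median was 0.6, and Bpifa1 was higher by 4.15, Scgb3a1 higher by 2.51 and Cyp2f2 lower by -3.72. Of 10 erythroid markers 9 were lower in that comparison, beside 25.7% of all rows. All 10 were higher with exercise among tumor-bearing mice, beside 24.3%, Slc4a1 by 7.11 and Hbb-b2 by 5.59 among them. Epb4.2 passed the filter on low counts only through E(+)T(+), the library in which it was higher.

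**Figure D4:**
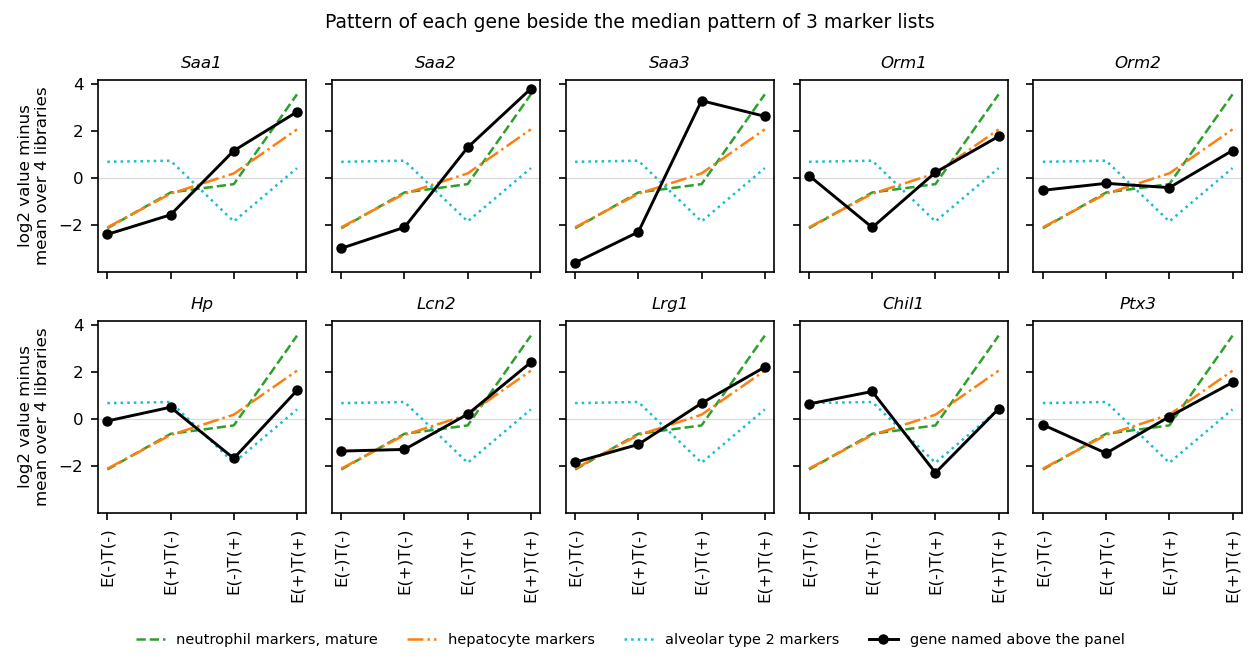
Log2 level of each gene minus its mean over the 4 libraries (black points), beside the median of the same quantity for mature neutrophil, hepatocyte and alveolar type 2 markers (dashed, dash-dotted and dotted lines). Chil1 and Hp dip in E(-)T(+) with the alveolar type 2 markers, while Saa1, Saa2, Lcn2 and Lrg1 are higher in E(-)T(+) than in both libraries without tumor and highest in E(+)T(+).

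For each gene the nearest patterns were searched among 11210 rows with a mean normalized count of at least 50, as the smallest largest deviation of the centred log2 values over the 4 libraries. Hp was nearest to Edn1 (0.1), which encodes endothelin-1, then to Lrrc32 (0.19) and Prrt4 (0.23). Chil1 was nearest to Map4k2 (0.11), Slc5a10 (0.12) and Ager (0.13), the last a marker of alveolar type 1 cells. Lcn2 was nearest to Tlr13 (0.3), a receptor of myeloid cells, Pira11 (0.3) and Pira4 (0.31). Lrg1 was nearest to Pira1 (0.19), Pira4 (0.21) and Pira2 (0.22), paired immunoglobulin-like receptors of myeloid cells. Saa1 was nearest to Serpina3n (0.37), the interferon-induced chemokine Cxcl10 (0.39) and Cd33 (0.46). Saa2 was nearest to Asprv1 (0.53), Stfa2l1 (0.79) and Ifitm6 (0.79). Saa3 was nearest to Mybl2 (0.43), a factor of dividing cells, Cd5l (0.44), a secreted protein of macrophages, and Kcnu1 (0.84). Orm2 was nearest to Midn (0.08), Ppp1r15a (0.09) and Stk16 (0.09). Ptx3 was nearest to Pira6 (0.32), Gpr141 (0.34) and Irf7 (0.44). Orm1 had its nearest patterns farther off, in Pira6 (0.75), 1500011B03Rik (0.77) and Dnajc16 (0.83). With 4 libraries many rows can lie this close, and the Pira genes are near-identical copies that may share reads.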

How the data were processed

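Lung RNA was sequenced from its poly(A) end with the QuantSeq 3' mRNA-Seq kit. The authors aligned the reads with Bowtie2 to mm10, per the processing notes, counted them with bedtools and used edgeR's quantile normalization. Versions, annotation and strand use were not given in the sources used here, so overlapping and antisense genes may share reads. The deposited log2 values, 1 file per library, are log2(normalized read count + 1) made by the authors. Whole reads behind them were recovered with fitted library sizes and a negative binomial dispersion of 0.372, which gave 100% of the values within 0.001. Of the values, 94.6% were resolved to 1 read, and the rounding of the deposited values left 0.035% of a high count open. The smallest level that 3 reads can show was 0.224 to 0.321 CPM of the recovered reads.

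Differences of log2 values were computed with a limit of 2-fold and a mean normalized count of at least 4. Exact Clopper-Pearson intervals cover counting error only. limma 3.58.1 (R 4.3.3) was fitted on the log2 values with Benjamini-Hochberg adjustment over 15164 rows, after a test on simulated data. Python 3.11.15 and scipy 1.17.1 were used for the rest. Gene positions are from GENCODE vM21 and promoters from RefSeq (GRCm38.p6). Protein sequences and the promoters of Orm1 and Hp were not analysed here.

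The members and lists were chosen with earlier results of these data known. Named from each list were the 3 genes with the largest difference among those with a mean of at least 50, and genes that define the list or act with a described gene, and for each gene the 3 nearest patterns; 1 gene is not reported here. Alternatives were other scalings, pseudocounts and filters, a limit that also needed the interval to leave out 0, a share of E(-)T(+) taken off E(+)T(-), and limma with no variance trend.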

Additional observations from a re-analysis of the deposited data

Results flagged for a closer look

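For 3 genes a difference had one sign in one pair of libraries and the opposite sign in the other pair, beyond counting error in both. The exercise difference of Orm1 was -2.21 without tumor and 1.54 with tumor, apart by 3.75, and the value with tumor was 0.94 with library totals alone. The exercise difference of Saa3 was 1.31 without tumor and -0.66 with tumor, apart by -1.98. With the median share of E(-)T(+) taken off E(+)T(-) the value without tumor was -0.47, so the signs were then the same. Other shares in the measured range, 0.642% to 2.18%, were not tried. The tumor difference of Hp was -1.59 in sedentary mice and 0.72 in runners, apart by 2.31, and the value in runners was 0.3 with library totals alone. With 1 library per group, none of the 3 was tested. Ptx3 also had opposite signs, -1.21 and 1.46, but its exercise difference without tumor was within counting error (-3.99 to 0.53).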

How the results depend on the processing

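No paired analysis was possible because each group had 1 library. For the same reason no library could be left out. With library totals alone, the genes at least 2-fold lower were 1 for exercise with tumor and 1 for tumor in runners, against 0 and 0. All rows were lower at 35.7% and 24.3% there. A mean normalized count of at least 50, which Saa1, Saa2, Orm2 and Ptx3 do not reach, left 1 gene lower for exercise without tumor, 3 higher for tumor in sedentary mice, 5 higher for exercise with tumor and 4 higher for tumor in runners. For exercise without tumor, a pseudocount of 4 left 1 gene lower and a pseudocount of 0.5 gave 2 higher. An interval that leaves out 0 left 1 lower. Less the median share of E(-)T(+), 0 were higher and the Saa3 difference was -0.47. No share of all rows is given here for the mean of at least 50 or for these settings, so their counts have no background. With no trend of the variance on the mean, limma called 0 of the 10 genes and 0 of all rows for tumor. Of the other counts and values, 67 counts stayed within 1.5 times those given, for example 6 against 9 genes higher for exercise with tumor under library totals alone. A further 200 single values stayed inside their counting interval and 19 left it. Inside the interval, a pseudocount of 4 took the sedentary tumor difference from 4.3 to 2.5 for Saa2 and from 3.56 to 2.59 for Saa1, below Chil1 in size (-2.92), and Lcn2 without tumor was -0.02 with library totals alone. limma called 4 to 6 of the 10 genes for tumor under the other scalings, pseudocount and filter, where it called 2.18% to 7.03% of all rows, and 0 of the 10 for exercise under all. The shift of all rows with totals that leave out hemoglobin was -0.08 to -0.13. Depth limits Saa1, Saa2 and Ptx3 without tumor and Orm2 in every library, each at 16 reads or fewer there. It also limits Orm1 in E(+)T(-), at 10 reads, and Ptx3 in E(-)T(+), at 9 reads.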
